A study of Papilio machaon with 10 samples.

Results

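The second larval instar (L2) of the swallowtail butterfly Papilio machaon was set against the other 4 instars, L1, L3, L4 and L5. It is 1 of 10 whole-body libraries, 1 per stage, which run from the egg through the larval instars to pupae and adults of both sexes. The larvae were reared by the authors on fennel or carrot. The L2 and L1 libraries each pooled several larvae, and the egg library several eggs, while L3, L4, L5 and every pupal and adult library came from 1 individual each, so a difference between instars and a difference between larvae cannot be told apart. The stages were taken as labelled, and the labels give no sex for the larvae and no time since the last moult. Expression was deposited as RPKM (a read count corrected for the length of the gene and the depth of the library) for 15285 genes listed by locus tag. Members were chosen by level: 12941 genes had a mean RPKM of at least 1 over L1 to L5, and for each the log2(RPKM + 1) of L2 was compared with the mean of the 4 other instars and with their range. The female and male pupae serve as context for a moulting state, with the egg and the female and male adult beside them. No gene of the table could be paired with a name, so results are given by levels, groups of genes and neighbouring locus tags, with no function for any gene.

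Caterpillars grow by shedding their cuticle between instars. Before each moult a pulse of the steroid hormone ecdysone makes the epidermis detach from the old cuticle and lay down a new one, and larvae stop feeding meanwhile. In moths and flies, genes for cuticle proteins and for chitin handling are known to be transcribed in short bursts around the moult, while genes of the feeding gut are known to be low at that time. The pupa likewise makes an adult cuticle during its development. Whether the L2 larvae, or the larvae of any other instar, were moulting when collected was not tested.

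The read numbers behind the RPKM values were worked out from the steps between values. Reads summed over genes were 35985078 in L2, against 23239554 to 30916042 in the other instars and 23596572 to 32077629 in the other stages. L2 listed 549 genes at 0, against 580 to 1350 in the other instars. At an RPKM of at least 1 there were 12502 genes in L2, against 11270 to 12691 in the other instars. A level of 3 reads on a gene of median length corresponds to 0.113 RPKM in L2 and to 0.124 to 0.163 RPKM in the other instars.

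L2 differed from the other instars through a minority of genes that were very far apart. L2 lay outside the range of the 4 others in 5182 of 12941 genes, 40% of those tested, which was above the 36.1% of L1 and the 26.9% of L3 but below the 40.3% of L4 and the 55.6% of L5. The median absolute difference from the mean of the 4 others was 0.48 on the log2 scale in L2, between the 0.41 of L3 and the 0.71 of L5. At the 95th percentile of the genes it was 3.33 in L2, against 2.17 in L1, 1.73 in L3, 2.03 in L4 and 2.29 in L5. The median signed difference of all genes was 0.04 in L2, against -0.07 in L1, 0.24 in L3, 0.23 in L4 and -0.56 in L5. L5 was the lowest of the 5 instars in 47.9% of genes and the highest in 7.71%. The values of L5 thus include a shift of the median gene.

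Genes outside the range of the other instars and at least 4-fold (2 on the log2 scale) from their mean numbered 1336, or 10.3% of those tested. Of these, 824 genes (6.37%) were higher in L2 and are called L2-high, and 512 (3.96%) were lower and are called L2-low. The same count was 658 for L1, 295 for L3, 509 for L4 and 843 for L5, each against its own 4 remaining instars. L5 had more genes at least 4-fold low than L2, 591 against 512 in L2. At 32-fold (5 on the log2 scale) from the mean, with no condition on the range, L2 stood alone with 276 genes high and 61 low. The counts were 22 and 16 in L1, 2 and 2 in L3, 18 and 14 in L4 and 35 and 9 in L5. The 4-fold limit cuts through a continuous distribution: 46 L2-high genes lay within 0.1 above it and 40 genes within 0.1 below it.

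**Figure D1:**
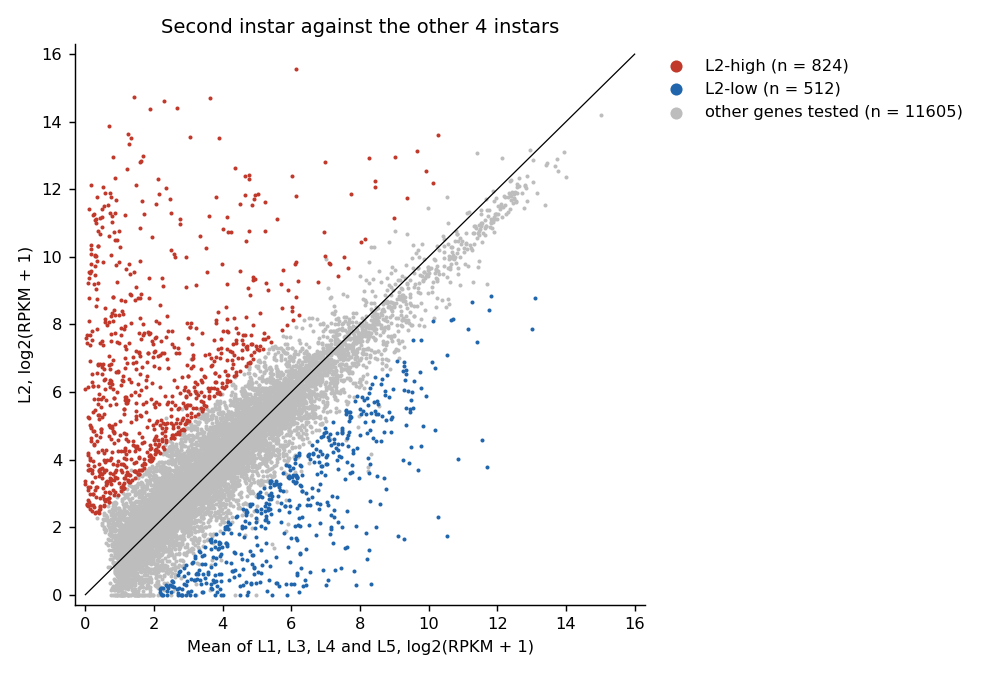
Each point is 1 of 12941 genes, with its log2(RPKM + 1) in L2 (vertical axis) against the mean of L1, L3, L4 and L5 (horizontal axis). The line marks equal levels, and the 824 L2-high genes (red) reach up to 13.3 above it while the 512 L2-low genes (blue) reach down to 8.8 below it.

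**Figure D2:**
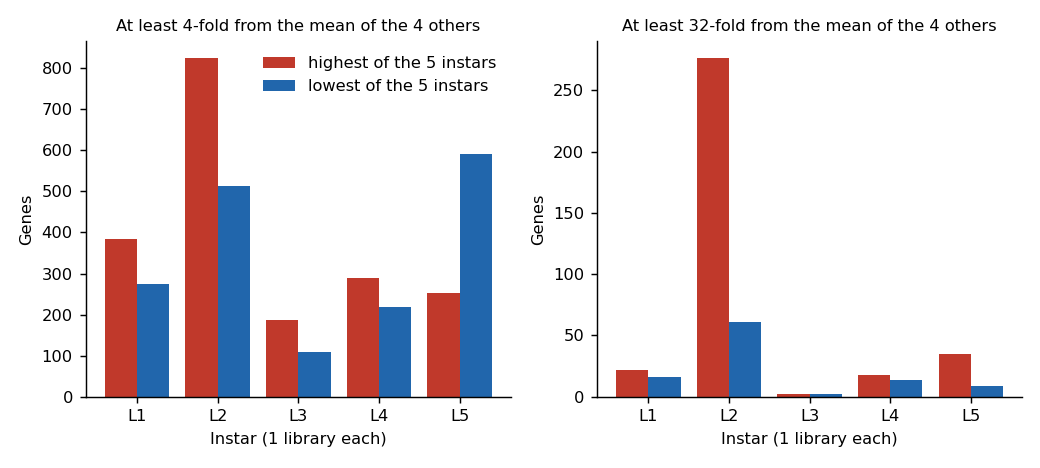
Bars count genes high (red) or low (blue) in an instar by at least 4-fold (left) or 32-fold (right) from the mean of the 4 others. At 4-fold the instar must also be the highest or the lowest of the 5, which is not required at 32-fold. There is 1 library per instar. L2 has 276 genes at least 32-fold high, against at most 35 in any other instar.

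With limma's moderated test, 461 genes passed at an adjusted p under 0.05 (Benjamini-Hochberg over 12941 genes), 3.56% of those tested. Of these, 367 were higher in L2 (2.84%) and 94 lower (0.726%). All 461 were also among the 1336 genes outside the range of the 4 others and at least 4-fold from their mean. The test used the same differences that defined those genes, so this overlap is no separate support. The smallest difference among the genes that passed was 2.83 on the log2 scale. Whether a gene passed also depended on its standard error. The test assumes that the L2 library varies like the 4 others, whose spread is that between different instars and not between replicates. Without L3, 45 genes passed as lower in L2 and 274 as higher, and without L1, 156 passed as lower and 431 as higher. With a pseudocount of 0.1, 202 passed as higher and 110 as lower. The filter counts L2 itself, so genes near 0 in the 4 other instars could enter through L2 alone. A pseudocount of 1 narrows the spread of such genes, so the excess of higher calls depends in part on it.

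RR48_03180 had the largest rise. It had 27330 RPKM in L2 (799345 reads), against 2.96 RPKM in L1, 0.929 in L3, 0.755 in L4 and 2.88 in L5. The L2 level was thus 9245 times the highest of the other instars. RR48_03180, RR48_13674, RR48_15016 and RR48_13318 were chosen for passing limma's test with the largest differences and L2 outside the range of the 4 others. Their standard errors and adjusted p-values are thus descriptions of chosen genes. For RR48_03180 the log2 difference was 13.31 (standard error 0.69, limma adjusted p = 0.000263). Beyond the larvae, RR48_03180 had 6498 RPKM in the male pupa and 4.17 in the female pupa. The egg had 14.6 RPKM of it, the male adult 4.49 and the female adult 9.33. It was abundant in L2 and the male pupa and low in every other library.

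RR48_13674 came next, with 15110 RPKM in L2 (171736 reads), against 0.254 RPKM in L1, 0.652 in L3, 0.0971 in L4 and 1.95 in L5. These levels rest on 2, 6, 1 and 15 reads in the other instars. Its log2 difference was 13.20 (standard error 0.70, limma adjusted p = 0.000263). Unlike RR48_03180 it was as low in the male pupa, at 0.89 RPKM, as in the egg (1.56), the female pupa (0.271) and the male adult (1.18), and it was listed at 0 in the female adult, where 0 reads allow up to 0.336 RPKM. L2 was the only library with more than 2 RPKM of this gene.

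RR48_15016 had the largest fall. It had 2.32 RPKM in L2 (73 reads), against 6038 RPKM in L1, 3221 in L3, 752 in L4 and 322 in L5, so that the lowest other instar was 139 times the L2 level. The log2 difference was -8.80 (standard error 1.5, limma adjusted p = 0.0221), and it no longer passed without L3 (limma adjusted p = 0.0627) or with no filter on low values (limma adjusted p = 0.106). RR48_15016 had 3278 RPKM in the egg and at most 0.597 RPKM in pupae and adults. In L2 it was closer to the pupae than to any other instar.

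For RR48_13318 the values were 0.242 RPKM in L2, resting on 2 reads (95% Poisson interval 0.0293 to 0.874, counting error only), against 239 RPKM in L1, 414 in L3, 617 in L4 and 171 in L5. Its log2 difference was -8.01 (standard error 0.78, limma adjusted p = 0.00181). This gene had 680 RPKM in the egg. Pupae had little of it, 1.35 RPKM in the male and 1.99 in the female, while the male adult had 57.4 RPKM and the female adult 6.94. The L2 level and that of the male pupa, which rests on 11 reads (0.672 to 2.41), overlap in their intervals.

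The L2-high genes made up much of the RNA of L2. They held 44.3% of the sum of RPKM in L2, against 2.50% in L1, 1.81% in L3, 0.868% in L4 and 0.761% in L5. By reads the share was 41.1% in L2, against 0.772% to 2.32% in the other instars. The genes were chosen for a high level in L2, so these shares describe the size of the difference and are no test of it. In bulk tissue, more cells that transcribe a gene and more RNA per cell cannot be told apart. The share was 28.7% in the male pupa, against 4.19% in the female pupa, and it was 6.38% in the egg and 1.13% to 1.27% in adults.

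**Figure D3:**
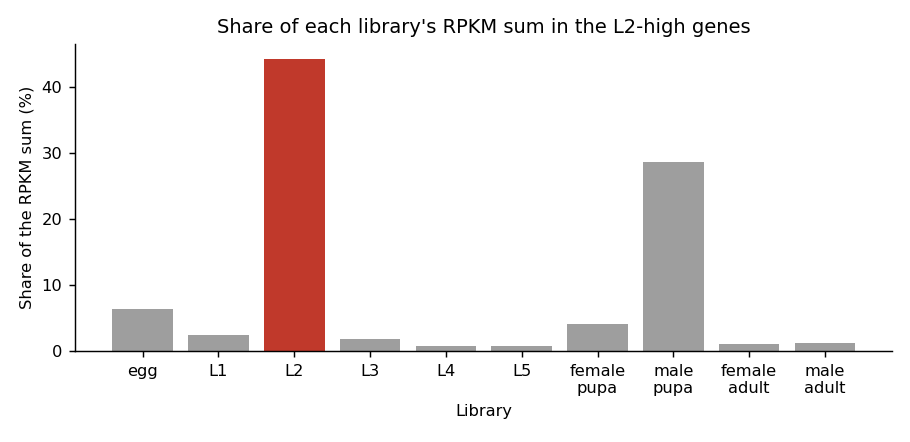
Bars give the share of each library's RPKM sum (vertical axis, percent) that lies in the 824 L2-high genes, with the L2 bar in red. The male pupa comes second after L2, at 28.7% against 44.3%.

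Most of that share lay in a few very abundant genes. Of the L2-high genes, 118 had at least 1000 RPKM in L2 and together took 38.2% of its RPKM sum, against 2.01% in L1, 1.23% in L3, 0.421% in L4 and 0.523% in L5. A further 256 had 100 to under 1000 RPKM and took 5.10% of the L2 sum, while 374 had 10 to under 100 RPKM and 76 had less. The 118 abundant genes were 43.7% of all 270 genes tested at that level in L2. Among the 10 genes with the highest RPKM in L2, 9 were L2-high, and those 10 took 15.2% of the L2 sum, against 1.79% to 3.71% in the other instars. The share of the sum in an instar's own top 10 genes was 15.2% in L2, against 18.4% in L1, 13.0% in L3, 12.9% in L4 and 12.3% in L5. L2 thus had about as many genes at 1000 RPKM or more, 270 against 220 to 273, but in part other genes.

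By their definition the L2-high genes were lower in the 4 other instars. Their median log2(RPKM + 1) was 6.29 in L2, against 1.95 in L1, 1.85 in L3, 1.59 in L4 and 1.10 in L5. In 579 of 824, L1 and L3 were within 2-fold of each other (70.3%, against 75.1% of all genes tested), with a median difference of L1 minus L3 of 0.04. At least 10 RPKM in L2 with under 1 RPKM in all 4 other instars was found in 104 genes, against 1 to 23 genes for any other instar treated the same way. Across all genes, L2 lay between its neighbours L1 and L3 in 32.1%, L3 between L2 and L4 in 43.2%, and L4 between L3 and L5 in 36.7%. L2 was at least 4-fold outside the interval of its neighbours in 994 genes (7.68%), against 202 (1.56%) for L3 and 301 (2.33%) for L4. The values of L3 and L2 are not independent here, since L2 is a neighbour of L3.

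The L2-low genes were the reverse, with like medians in the other instars and a dip in L2. Their median log2(RPKM + 1) was 2.53 in L2, against 6.06 in L1, 6.11 in L3, 5.84 in L4 and 6.12 in L5. Together they took 0.678% of the RPKM sum in L2, against 14.3% in L1, 11.1% in L3, 6.54% in L4 and 14.4% in L5. In 248 of 512 (48.4%) L1 and L3 were within 2-fold, against 75.1% of all genes tested. With a mean of at least 10 RPKM in the other instars there were 469, of which 95 were under 1 RPKM in L2. These 95 had a median of 0.337 RPKM in L2, against 27.2 in L1, 28.4 in L3, 18.9 in L4 and 18.0 in L5. Under 1 RPKM in L2 with at least 10 RPKM in each of the 4 others was found in 35 genes, against 2 to 10 for any other instar.

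Outside the larvae, the L2-high genes had their highest level in the male pupa. Their median log2(RPKM + 1) was 5.36 in the male pupa, against 2.27 in the female pupa, 2.74 in the egg and 1.28 to 1.98 in adults. Over these 5 libraries alone, none of which entered the rule, the male pupa was the highest in 467 of 824 L2-high genes (56.7%), against 2374 of all 12941 genes tested (18.3%). The egg was the highest in 18.7% of L2-high genes against 18.2% of all genes, and the female pupa in 13.0% against 35.5%. The male pupa was the higher of the pair of pupae in 654 L2-high genes (79.4%), against 42.9% of all genes tested. At least 4-fold higher in the male pupa were 391 L2-high genes (47.5%) against 6.63% of all genes, and at least 4-fold higher in the female pupa 37 (4.49%) against 3.43%. With 1 pupa of each sex and no age given, sex and pupal age cannot be told apart.

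Set against the same 4 instars, which both comparisons share, the median difference of the L2-high genes was 3.63 in L2 and 2.95 in the male pupa. For the egg it was 0.75, for the female pupa 0.24, for the female adult -0.15 and for the male adult 0.26. The L2-low genes had a median difference of -2.94 in L2, of -3.21 in the male pupa and -2.53 in the female pupa, and of -0.42 in the egg. In adults it was -2.29 for the male and -2.46 for the female. Over all genes tested the median was 0.04 in L2, 0.31 in the male pupa, 0.46 in the female pupa, 0.02 in the egg, 0.10 in the male adult and -0.05 in the female adult. Both groups of genes were chosen by their distance from the mean of the same 4 instars, which in part sets the sign of these values.

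**Figure D4:**
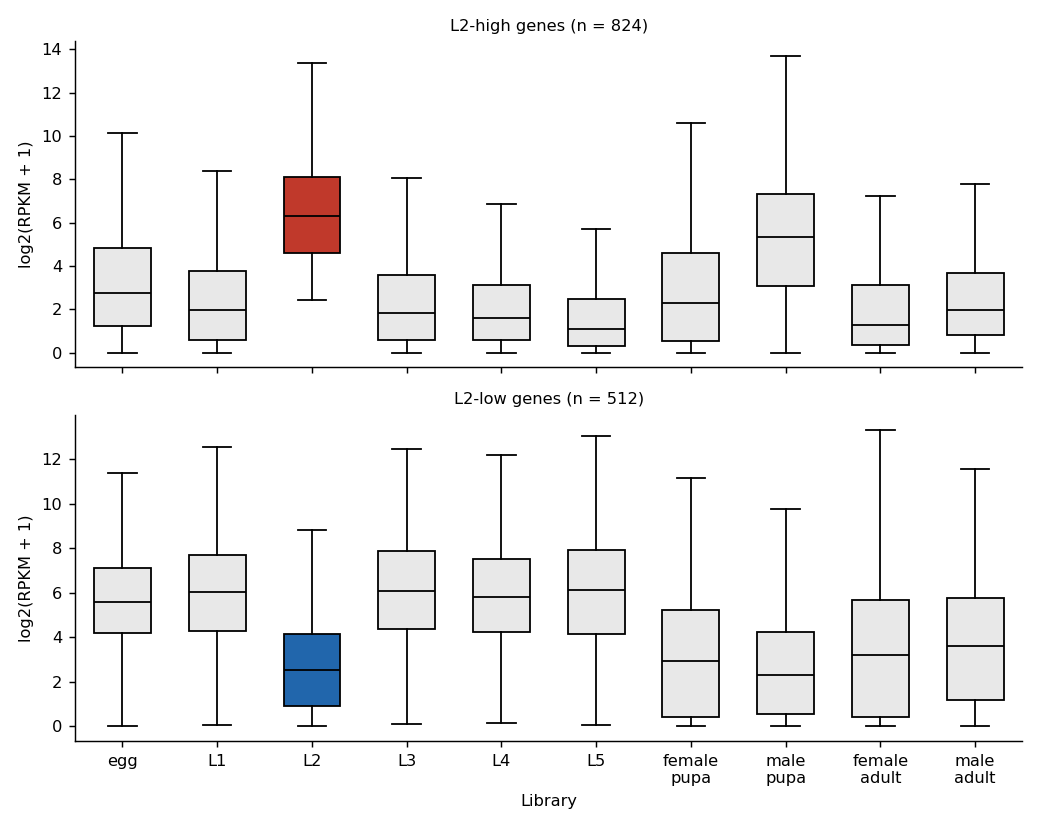
Boxes show log2(RPKM + 1) of the 824 L2-high genes (top) and the 512 L2-low genes (bottom) in each of the 10 libraries, as median, quartiles and whiskers to 1.5 times the interquartile range, without points beyond. The L2 box is coloured, and the male pupa has the next highest median of the L2-high genes, 5.36.

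Among the 5 non-larval libraries, the male pupa was the lowest in 172 of 512 L2-low genes (33.6%), against 12.2% of all genes tested. The female pupa was the lowest in 136 (26.6%), against 16.1% of all genes. For the egg and both adults this share was below that of all genes. The male pupa was the highest in 11 (2.15%), against 18.3% of all genes. The egg was the highest in 291 L2-low genes (56.8%), against 18.2% of all genes. Of the 469 L2-low genes with a mean of at least 10 RPKM in the other instars, 410 (87.4%) also had at least 10 RPKM in the egg. The like share over all genes at that level in the other instars was not computed, so 87.4% is not shown to be particular to L2-low genes. A smaller group of 122 had at least 10 RPKM in both pupae and both adults, with a median of 19.3 RPKM in L2, against 132 in L1, 192 in L3, 163 in L4 and 238 in L5. At the other end, 28 were under 1 RPKM in L2 and in all pupal and adult libraries. These 28, chosen for their low level in those 5 libraries, had a median of 41.9 RPKM in the egg.

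The L2-high genes were not uniform in their level in the male pupa. In the 748 with at least 10 RPKM in L2, the male pupa reached the L2 level in 263, had 25% to under 100% of it in 197, 1% to under 25% in 189 and under 1% in 99. The female pupa reached the L2 level in 89 and was under 1% of it in 262. At least 25% of the L2 level in the male pupa and less than that in the female pupa was found in 270 genes (36.1%), with medians of 107 RPKM in L2, 129 in the male pupa and 2.61 in the female pupa. The reverse, female pupa without male pupa, was found in 18 genes. Both pupae reached 25% in 190 genes, whose medians were 37.8 RPKM in L2, 69.9 in the male pupa and 44.2 in the female pupa. These counts are relative to the L2 level for which the genes were chosen, and the like shares over all genes were not computed.

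The genes most abundant in L2 were the least matched by another stage. Of the 118 with at least 1000 RPKM in L2, 48 had under 1% of the L2 level in the male pupa, against 51 of the 630 with 10 to under 1000 RPKM. Their median level in the male pupa was 127 RPKM, above the 98.0 RPKM of the genes with 100 to under 1000 RPKM in L2 and far below their own 2819 RPKM in L2. The L2 level enters both the grouping and the share, so the lower share of abundant genes is a description. In 30 genes every one of the 9 other libraries had under 1% of the L2 level. These 30 had a median of 2335 RPKM in L2, against 0.518 in L1, 0.21 in L3, 0.118 in L4 and 0.689 in L5. Together these genes took 10.6% of the RPKM sum of L2.

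**Figure D5:**
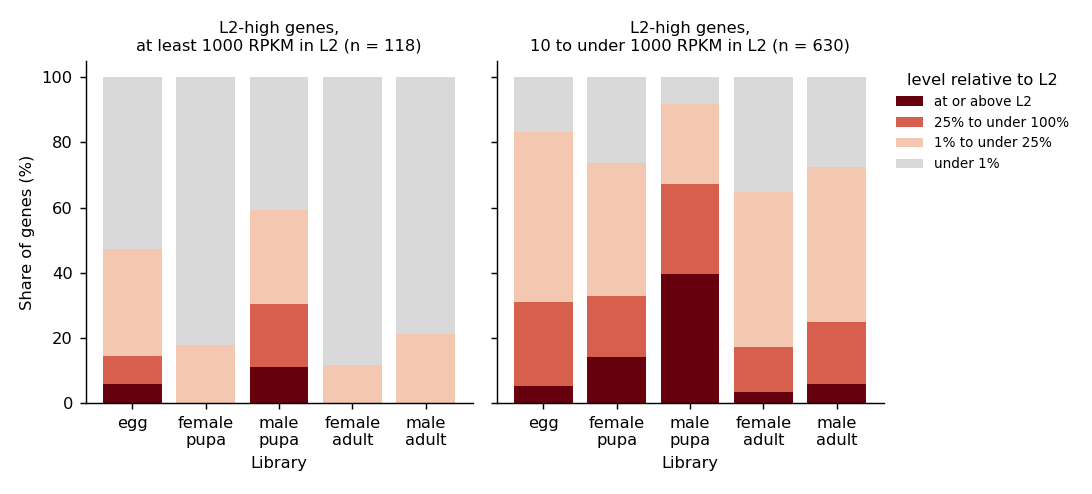
Stacked bars give the share of L2-high genes (percent) by their level in the egg, pupae and adults relative to L2, for 118 genes with at least 1000 RPKM in L2 (left) and 630 genes with 10 to under 1000 RPKM (right). In the male pupa, 250 of the 630 reach the L2 level, and 13 of the 118 do.

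Individual L2-high genes show both ends of this range. RR48_14307 had 8005 RPKM in L2, 18283 in the male pupa and 211 in the female pupa. In the other instars it had 0 reads in L1 and L3, 0.208 RPKM in L4 and 6.78 in L5. RR48_03096 had 3789 RPKM in L2 and 15217 in the male pupa, but 1.15 in the female pupa and 0 reads in the egg. In both genes the male pupa exceeded L2 and the other instars were near 0. At the other end, RR48_03924 had 1481 RPKM in L2 against 121 in L1, 299 in L3, 773 in L4 and 222 in L5, and 0 reads in either pupa. RR48_13311 had 1016 RPKM in L2 against 726 in L1, 242 in L3, 128 in L4 and 52.4 in L5. It had 0.798 RPKM in the male pupa and 0.724 in the female pupa. In the egg RR48_03924 had 345 RPKM, and RR48_13311 had 1136 RPKM, above its L2 level. Neither of these last genes passed limma's test (adjusted p = 0.404 and 0.643), with differences of 2.39 and 2.45 and standard errors of 0.96 and 1.26.

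Some L2-high genes were also seen in the egg. At least 25% of the L2 level in the egg was found in 212 of the 748 genes (28.3%), and 138 of these also reached 25% in the male pupa. Medians of the 212 were 61.8 RPKM in L2, against 13.4 in L1, 8.57 in L3, 5.69 in L4 and 2.64 in L5, and 35.7 in the egg. The female adult reached at least 25% of the L2 level in 14.4% of the 748 genes and the male adult in 21.0%. The genes were chosen for a high L2 level, which lowers all such shares. The like shares over all genes were not computed.

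L2-high genes often carried consecutive locus tags. In 363 of 824 (44.1%) the tag just before or after was also L2-high, while 897 of the 12117 other genes tested (7.40%) had an L2-high tag beside them. There were 19 runs of 4 or more consecutive L2-high tags, with 102 genes in all, and the longest held 14. Every gene of that run had between 580 and 3762 RPKM in L2, at most 13.4 RPKM in any other instar and at most 26.7 RPKM in the male pupa. In the egg they ranged widely, between 0.0646 and 1029 RPKM. The next longest run, of 9 genes and separated from it by 1 tag, had 475 to 4455 RPKM in L2 and 5.15 to 9132 RPKM in the male pupa. A run of 6 genes that includes RR48_13674 had 891 to 25169 RPKM in L2 and 0.127 to 8.02 RPKM in the male pupa, and took 3.30% of the L2 sum. Another, of 5 genes, had 57.0 to 1033 RPKM in L2 and 4.94 to 3083 RPKM in the male pupa. Levels in the male pupa thus varied widely between runs and within some of them.

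Among L2-low genes, 178 of 512 (34.8%) had an L2-low neighbour, against 5.01% of the other genes tested, and the longest of 9 runs held 4 genes. How tags follow the chromosomes was not tested. Genes that are near-identical copies can share reads in the counting, so values of single genes within a run are uncertain, and the part of shared reads was not tested.

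Length, which can be compared between genes from the size of 1 read in RPKM, differed little between the groups. The median L2-high gene had 0.927 times the median length of all genes tested, with quartiles of 0.52 and 1.60, against quartiles of 0.533 and 1.68 for all genes. The median L2-low gene had 1.01 times that length. Genes of the longest run had a median of 0.682 times and those of the run with RR48_13674 had 0.376 times. The median L2-high gene had 2165 reads in L2, where the choice of genes requires a high level. In the other instars 52 to 90 of the 824 were listed at 0, so the size of their difference depends on the pseudocount. For L2-low genes the median was 113 reads in L2, and 86 of them had fewer than 10.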

How the data were processed

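RNA of 10 whole-body samples of Papilio machaon, 1 library per stage and no replicates, was sequenced as paired-end Illumina reads of poly-A RNA. The authors deposited 1 table of RPKM values. The submitters' processing notes name TopHat 1.0.12 and 1.4.1 with no role given, and per the study's methods reads were aligned to its own genome assemblies. The counting tool is not given in the sources used here. The reference gene table held 0 of the locus tags. Reads per gene were the smallest whole numbers (within 0.001) giving the RPKM ratios of all libraries, found for 15285 of 15285 genes. They describe depth, counting error, shares by reads and relative gene length, and enter no test. Relative length rests on the size of 1 read found in this way.

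L2 was compared with L1, L3, L4 and L5 on log2(RPKM + 1), over genes averaging at least 1 RPKM in the 5 instars, by limma 3.58.1 in R 4.3.3 with an intensity trend (two-sided, Benjamini-Hochberg, 3 residual degrees of freedom). The script was tested on simulated data. P-values measure the spread between single libraries of different instars, and an exact permutation test of 1 library against 4 cannot go below p = 0.2. Differences on this scale understate changes of low genes. Alternatives were a pseudocount of 0.1, 75th percentile scaling, scaling to the sum of RPKM, other filters and folds, no trend, leaving out each instar, and L1 and L3 alone as the other instars. Named genes are the 2 with the largest rise and fall among those called, with at least 10 RPKM, and the 2 L2-high genes with the largest and smallest male pupa difference. The members and groups were chosen with earlier results of these data known. Python 3.11.15, numpy 2.4.6, pandas 2.3.3, scipy 1.17.1 and matplotlib 3.10.9 were used.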

Additional observations from a re-analysis of the deposited data

Results flagged for a closer look

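Among 28 sets of values, 7 had a library far from the others by Dixon's criterion. Chance meets this criterion in about 1 of 20 independent sets. The sets here are not independent, and the L2 measures rest on the levels that defined the comparison. The flags are therefore descriptions and no test against chance. In 5 of the 7 sets the library was L2, among the 5 instars. L2 had 276 genes at least 32-fold high, where the next instar had 35 (gap 0.88 of the range, critical value 0.71), and 61 genes at least 32-fold low, where the next had 16 (0.763 of the range). It had 104 genes at 10 RPKM or more with all other instars under 1 RPKM, against 23 for the next (0.786), and 35 genes under 1 RPKM with all others at 10 RPKM or more, against 10 (0.758). Its mean Spearman correlation with the other instars, across genes that are not independent, was 0.702, against 0.804 for the next lowest (0.733). These 5 measures describe the same difference of 1 library.

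The other flags concern L5 among the 4 other instars. RR48_14307 had 6.78 RPKM in L5, against 0.208 in L4, the next highest, and RR48_03096 had 2.99 RPKM in L5, against 0.118 in L4. Both gaps exceeded 0.96 of the range (critical value 0.829). Both genes were chosen for a large male pupa difference from the mean of these 4 instars, so these flags are descriptions too.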

How the results depend on the processing

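The number of genes past limma's threshold was 461 and fell to 151 with L1 and L3 alone as the other instars, a fit with fewer libraries. Leaving out 1 instar gave 319 (without L3) to 587 (without L1), of which 316 and 452 were among the 461. The other alternatives gave 312 to 505. With a pseudocount of 0.1, 64.7% of the calls were higher in L2, against 79.6%, and with no filter 54 genes were lower, against 94. The count of genes outside the range and at least 4-fold apart (1336) was 2811 at 2-fold and 751 at 8-fold, and 1159 to 1676 under the other alternatives, with more genes higher than lower in L2 in each. The share of genes with L2 outside the range (40%) was 44.7% with 75th percentile scaling, 38.8% with scaling to the sum of RPKM, 38.2% with no filter, 67.9% against L1 and L3 alone and 46.7% to 53.4% without 1 instar, where fewer libraries set the range. The share of L2-high genes with the male pupa highest of the non-larval libraries (56.7%) was 44.5% at 2-fold, 63.8% at 8-fold and 53.1% with a pseudocount of 0.1, and 54.6% to 58.4% otherwise. The like share of L2-low genes with the male pupa lowest (33.6%) was 30.7% to 35.2%. These shares were chosen after seeing the data, in place of planned shares against the mean of the other instars, which were not run as they share that mean with the L2 comparison. The 8 named genes, chosen as extremes, kept their direction in 11 alternatives each, and RR48_15016 lost its call in 2. The difference of RR48_13311 fell to 1.28 with L1 and L3 alone and to 1.84 without L5, below the 4-fold limit of 2. That of RR48_03924 fell to 1.99 without L1. Scaling by the 75th percentile moved the median difference of all genes to -0.05. Depth limits only low genes, at 0.113 RPKM for 3 reads on a gene of median length in L2.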
